A study of Ditylenchus destructor and Heterodera glycines and Meloidogyne incognita with 162 samples.

Results

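The operon-like gene runs of Ditylenchus destructor, the potato rot nematode, were taken from gene positions alone. All genes of the D. destructor count table were sorted by chromosome and start. A run was 3 or more consecutive genes of 1 chromosome, all on the same strand, in which each start lay 1 to 500 bases after the end of the gene before it. The rule found 199 runs holding 641 of the 15798 genes (4.06%). There were 163 runs of 3 genes, 32 of 4, 2 of 5 and 2 of 7. Expression values played no part in the choice, so the course of expression within a run was free to be alike or not.

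An operon in a nematode is a row of genes on the same strand that are copied into a single long precursor RNA from a promoter upstream of the row. In Caenorhabditis elegans the precursor is cut into separate mRNAs, and the mRNAs of the downstream genes receive a spliced leader, mostly SL2, in a trans-splicing reaction tied to the 3′ end formation of the gene before. Genes of an operon then share a promoter, while the amount of each mRNA can still differ through its own processing and decay. Whether any run here is an operon was not measured, since neither precursor RNAs nor spliced leaders were counted.

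The samples were 54 single embryos of D. destructor strain Dd1115, isolated from sweet potato tubers, at 11 stages. These were the cleavage stages (Zygote, 2-cell, 4-cell and 8-cell), 2 stages of more cells (24-44cell and 64-78cell), the elongating embryo (Comma, then 1.5-fold and 2-fold), the Moving embryo and the L1 larva. Zygote had 4 embryos and each other stage had 5. No strain, mutation or treatment set the groups apart, only the stage, which was read from the shape of the embryo. Each embryo was cut open and made into a Smart-seq2 library, which copies polyadenylated RNA at full length, carries no molecular identifiers and does not keep the strand. The study also sequenced embryos of Heterodera glycines and Meloidogyne incognita.

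Libraries held 300110 to 10641389 reads counted to genes, with a median of 5260364, and 2 libraries were under 1000000. Levels are given as CPM, the count of a gene divided by the gene counts of the library and multiplied by 1000000. One embryo stood apart: Moving replicate 5 had 327 of the 641 run genes at 1 CPM or more, against 534 to 563 in the other Moving embryos, and counts, pair directions and calls at Moving are given with and without it. The embryos were not described as coming from separate cultures, so the p-values measure the spread between embryos. The paper states that more individuals were sampled at each stage than were kept, so this spread is that between the embryos kept. In a whole embryo, fewer cells that express a gene and less RNA per cell cannot be told apart.

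The runs were spread over the genome. Of the genes of chromosomes 1, 2, 3 and 4, 3.90%, 4.52%, 4.43% and 3.49% lay in runs, and 2 runs lay on scaffolds. Runs were 2743 to 48336 bases long, with a median of 11412. The gap between neighbours within a run ran from 2 to 500 bases, with a median of 192.5 and quartiles of 90.5 and 310.75, and 122 of the 442 gaps (27.6%) were at most 100 bases. Genes of runs spanned a median of 2852 bases from start to end, against 3455 bases for all other genes, introns included.

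Genes of runs were expressed at somewhat higher levels than the rest. The median of their mean CPM over the stages was 25.5, against 18.0 in other genes. With CPM divided by the span in kilobases and rescaled to a sum of 1000000, the medians were 24.0 in run genes and 13.6 in other genes. A mean of 10 CPM or more in at least 1 stage was reached by 531 run genes (82.8%), and by 78.6% of other genes. Only 3 run genes had no count in any embryo, and 15 stayed below 1 CPM in every stage. In each library, 3.42 to 5.74% of all counts fell in run genes.

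Along a run, in the direction of transcription, the median level showed no steady fall. In the 188 runs whose genes all reached 1 CPM, the median level per kilobase of span was 23.5 at position 1, 21.7 at position 2 and 28.4 at position 3, and it was 25.5 at position 4, which 33 of these runs have. The gene at position 2 was above that at position 1 in 93 runs and below it in 95. At position 3 it was above in 102 runs and below in 86. The median log2 ratio to position 1 was −0.13 at position 2 and 0.25 at position 3. At position 4 it was 0.42 over the 33 runs, with 18 above and 15 below.

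The main question was whether neighbours in a run follow the same course through embryogenesis. For each pair of neighbours, Pearson's r was taken over the 11 stages between the stage means of log2(CPM + 1), here called the course r. Of the 442 neighbouring pairs in runs, 424 had both genes at 1 CPM or more in some stage, and 18 were left out. The median course r was 0.51 (quartiles 0.20 and 0.77) in runs, against 0.38 (−0.06 and 0.67) in the 7002 other same-strand neighbours, a difference of 0.13. Spearman's rho gave medians of 0.49 in runs and 0.38 in the others. The medians were 0.54 in runs and 0.40 in the others without Moving replicate 5. No p is given, because pairs of a run share genes and all pairs share the same 54 libraries and their depths.

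The difference recurred in each of 5 courses built from single embryos, 1 per stage by replicate number. There the median r was 0.36 ± 0.03 in runs and 0.23 ± 0.02 in other same-strand neighbours, and the difference was 0.13 ± 0.02, from 0.103 to 0.146 (SD, n = 5 courses, the fifth over 10 stages). Strongly alike pairs, with r of 0.7 or more, made up 34.2% of run pairs and 22.7% of the other same-strand pairs. Pairs with opposed courses, r below 0, made up 17.9% of run pairs and 28.2% of the other pairs. Head-to-head neighbours, which face away from each other, had a median of 0.39 and tail-to-tail neighbours 0.33.

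Within runs, similarity varied with the gap between the genes. Run pairs 1 to 100 bases apart had a median course r of 0.72 (114 pairs), and 59 of these pairs were at 0.7 or more. In the next classes of gap, each 100 bases wide and the last ending at 500 bases, the medians were 0.50, 0.43, 0.39 and 0.49. Close pairs were thus the most alike, and past 100 bases the medians lay between 0.39 and 0.50. At the edge of the rule, same-strand pairs with gaps over 450 and up to 500 bases inside runs had a median of 0.49 (30 pairs), and those over 500 and up to 550 bases, just outside, 0.44 (153 pairs).

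The same fall with distance was seen outside runs, and over gaps of 1 to 500 bases together the median was not higher in runs. Other same-strand neighbours 1 to 500 bases apart, which are close pairs outside any run, had a median course r of 0.54 (1390 pairs), against 0.51 in runs, so that the difference changed sign to −0.03. In the same classes of gap as above, their medians were 0.63, 0.56, 0.57, 0.39 and 0.44. Runs were thus higher than other same-strand pairs in the first and the last of these classes. They were lower between 100 and 300 bases, and level between 300 and 400. The mix of gaps differed: 114 of the 424 run pairs lay 1 to 100 bases apart, and 469 of the 1390 others. At that gap r was below 0 in 5.26% of run pairs and 18.6% of the others. In the next classes, in order, the shares were 18.8%, 25.5%, 29.1% and 18.3% in runs, and 15.9%, 21.1%, 29.3% and 28.9% in the others. At gaps over 500 and up to 2000 bases, and over 2000 and up to 10000 bases, which no run pair has, other same-strand neighbours had medians of 0.37 and 0.30. Restricting the comparison to gaps of 1 to 500 was chosen after the values were seen.

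**Figure D1:**
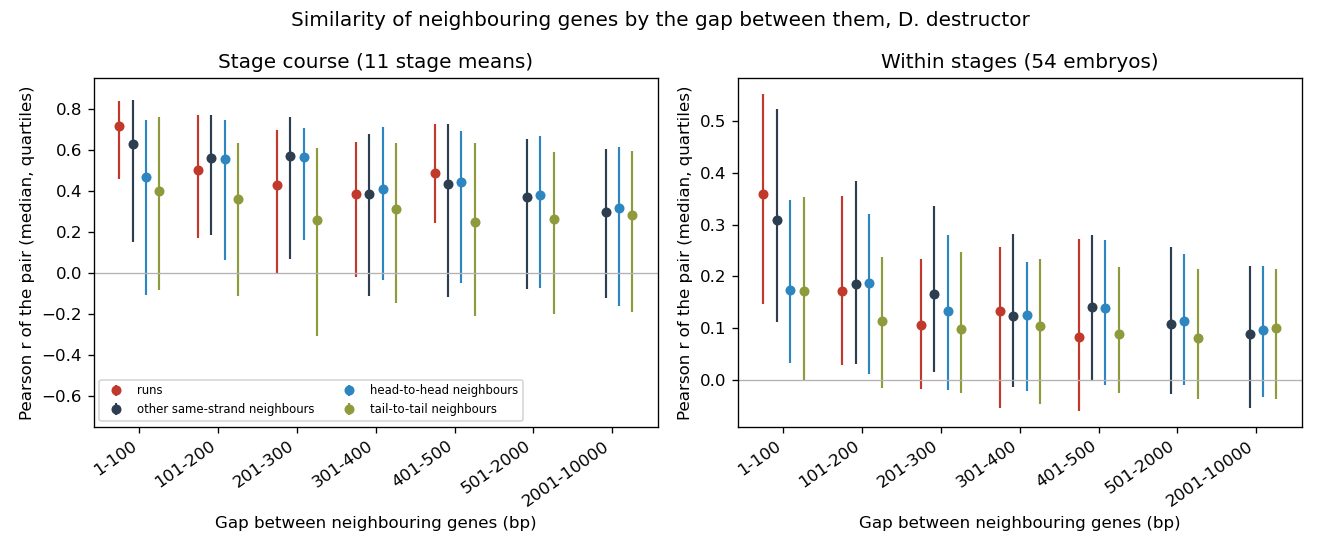
Median Pearson r of neighbouring genes (points, with lines from the lower to the upper quartile of pairs) by the gap between them in bases, for run pairs, other same-strand pairs, head-to-head pairs and tail-to-tail pairs. The left panel shows the course over 11 stage means and the right panel the deviations of 54 embryos from their stage means. Among the gaps drawn, all of 1 base or more, run pairs at 1 to 100 bases sit highest in both panels, at 0.72 and 0.36, and at wider gaps they overlap with other same-strand pairs.

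The difference between runs and other same-strand neighbours at all gaps was present at each level of expression. The gap was not held equal in these classes. Where the weaker gene of the pair averaged under 10 CPM, the median course r was 0.63 in runs (171 pairs) and 0.44 in other same-strand pairs. Between 10 and 50 CPM the medians were 0.42 (180 pairs) and 0.27, and at 50 CPM or more they were 0.57 (73 pairs) and 0.30. Genes on either side of a middle gene within a run, which are not neighbours, had a median of 0.41 (233 pairs). Same-strand genes 10 places apart had a median of 0.22.

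Neighbours in runs also deviated together between embryos of the same stage, though weakly. Pearson's r over the 54 embryos, with the mean of the stage removed from log2(CPM + 1), had a median of 0.18 in run pairs and 0.12 in other same-strand pairs. Taken stage by stage, the run median was higher in 11 of 11 stages, by 0.04 to 0.18. Run pairs 1 to 100 bases apart had a median of 0.36, against 0.31 in other same-strand pairs at that gap. With gaps of 1 to 500 bases in both, the medians were 0.18 in runs and 0.20 in the others, again a change of sign. Reads of closely spaced or overlapping genes can also move together in counting: tail-to-tail pairs whose spans overlap had a within-stage median of 0.37 and a course r of 0.64. The part of shared reads in the values of close run pairs was not tested, since the table gives no exons.

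The next gene outside a run was less alike than the genes within it. Same-strand neighbours that joined a run gene to the gene next to the run had a median course r of 0.15 (153 pairs), against 0.51 inside runs and 0.38 in same-strand pairs with no run gene. At gaps over 500 and up to 2000 bases, these medians were 0.14 at the borders of runs (90 pairs) and 0.38 in pairs with no run gene (2895 pairs). The gene upstream of a run had a median of 0.09 with the first run gene (82 pairs), and the gene downstream had 0.24 with the last (71 pairs). With the weaker gene under 10 CPM the border median was 0.24 against 0.44 with no run gene, at 10 to 50 CPM 0.08 against 0.28, and at 50 CPM or more, over 31 pairs, 0.27 against 0.30. Run genes were also less like genes farther off: same-strand genes 10 places apart had a median of 0.13 with 1 gene in a run (580 pairs) and 0.23 with none. These border values were drawn after the other results were seen.

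Runs differed widely among themselves. Of the 188 runs in which every neighbouring pair could be measured, 124 had every course r above 0, and 27 had every r at 0.7 or more. In 8 runs every r was below 0, and in 23 runs a pair below 0 stood beside a pair at 0.7 or more. With Moving replicate 5 left out, 187 runs could be measured, and these counts were 123, 28, 6 and 21. The 27 alike runs held 83 genes, in 25 runs of 3 and 2 of 4, and 41.1% of their gaps were at most 100 bases, against 27.6% over all runs. Their summed level was highest at Moving in 6 runs, at Comma in 5, at 2-fold in 4, at Zygote in 4, at L1 in 3, and at 4-cell, 8-cell, 24-44cell or 1.5-fold in the remaining 5. In 16 runs all genes had their highest mean in the same stage.

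Among the 129 runs whose genes all reached 10 CPM, the mean course r ran from −0.50 to 0.99. The most alike was Dd_05261, Dd_05262 and Dd_05263 on chromosome 2 (14206386 to 14235098, plus strand, gaps of 153 and 209 bases). Dd_05261 averaged 61.1 ± 66.9 CPM at Comma and 58.7 ± 31.5 at 2-fold, and had no count at Zygote or 2-cell. Dd_05262 reached 95.8 ± 45.1 CPM at 2-fold and 96.2 ± 64.0 at Moving, and Dd_05263 reached 296 ± 103 CPM at 2-fold (SD, n = 5 each). In all 3 the mean at 1.5-fold was below those at Comma and 2-fold, in Dd_05261 and Dd_05262 by less than the SDs between embryos.

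The next 2 runs in that order had other shapes. In Dd_02964, Dd_02965 and Dd_02966 (chromosome 1, minus strand, gaps of 136 and 56 bases, mean r 0.97) all genes were highest at Moving, with 26.5 ± 15.0, 13.1 ± 10.9 and 23.9 ± 15.9 CPM, and were at 0 in every Zygote, 2-cell and 8-cell embryo. Their Moving means were 33.1 ± 4.08, 16.4 ± 8.98 and 29.9 ± 11.1 CPM without replicate 5 (SD, n = 4). In Dd_06360, Dd_06361 and Dd_06362 (chromosome 2, minus strand, gaps of 43 and 218 bases, mean r 0.96) all peaked at Comma, with 109 ± 104, 96.1 ± 124 and 143 ± 170 CPM. The Comma embryos varied greatly in that run, as the SDs show, and the within-stage r of its pairs was 0.38 and 0.51.

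The least alike runs joined genes of different courses. In Dd_09380, Dd_09381 and Dd_09382 (chromosome 3, 16207429 to 16217757, plus strand, mean r −0.43) the middle gene was a gene of early stages, with 326 ± 128 CPM at Zygote, 566 ± 333 at 64-78cell and 18.3 ± 15.9 at L1. Its downstream neighbour Dd_09382, 184 bases away, had 1.52 ± 3.05 CPM at Zygote and was highest at 1.5-fold, with 55.6 ± 40.3 CPM. In Dd_10433, Dd_10434 and Dd_10435 (chromosome 4, mean r −0.50) the outer genes were both highest at 2-cell, with 137 ± 92.7 and 135 ± 26.7 CPM. The gene between them had a lower highest mean, with stage means from 3.88 to 19.5 CPM. None of the 3 genes passed the test over the 11 stages (edgeR adjusted p = 0.135, 0.964 and 0.17 in the order of position). In Dd_08865, Dd_08866 and Dd_08867 (chromosome 3, mean r −0.32) the first gene of the run, Dd_08867, had 310 ± 130 CPM at Zygote and 44.0 ± 24.9 at Moving, while the other genes stayed between 3.41 and 30.1 CPM. The course r of Dd_09380 and Dd_09381 was −0.31, and −0.03 without Moving replicate 5, a larger shift than in any other pair of the named genes.

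**Figure D2:**
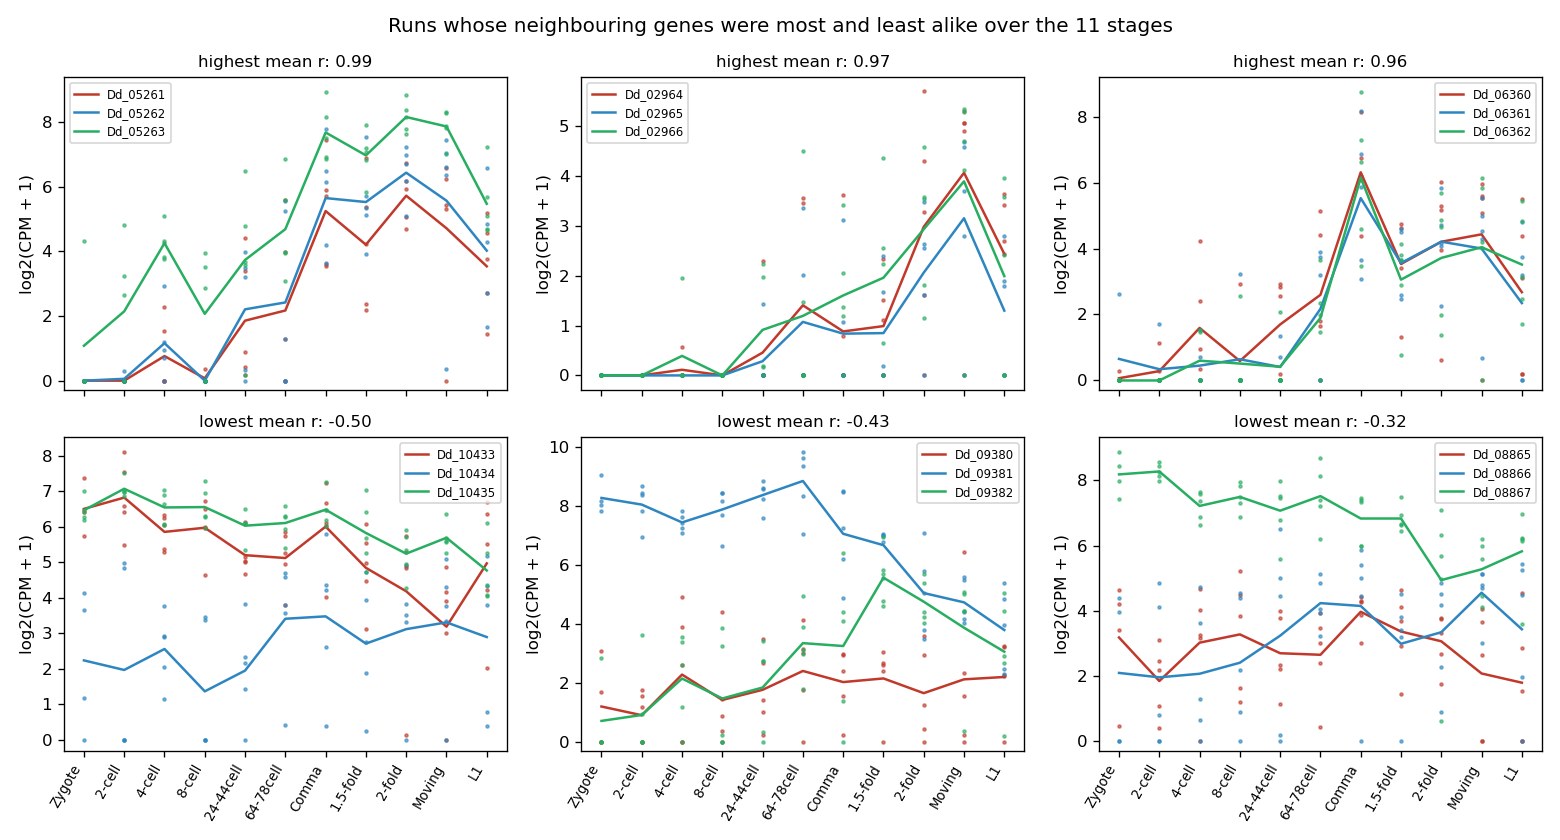
Expression of the 3 runs with the highest and the 3 with the lowest mean course r among runs whose genes all reached 10 CPM, as log2(CPM + 1) by stage. Points are embryos, 4 at Zygote and 5 at each other stage, lines join stage means, and colours mark the genes of a run in order of position. In the upper row (mean r 0.99, 0.97 and 0.96) the lines rise and dip together, and in the lower row (−0.50, −0.43 and −0.32) they cross.

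The 2 runs with the most genes gave a contrast. The run Dd_07727 to Dd_07733 (chromosome 3, 5363537 to 5386056, minus strand, gaps of 30 to 345 bases) held 7 genes whose 6 neighbouring pairs had course r of 0.75 to 0.96. All 7 genes had no count in any Zygote embryo. Dd_07731, at position 3 in the direction of transcription and the one with the most counts, averaged 7.14 ± 6.06 CPM at 4-cell, 50.6 ± 45.9 at 24-44cell, 129 ± 130 at Comma, 377 ± 266 at Moving and 200 ± 101 at L1. The other members were lower: at Moving, Dd_07727 averaged 88.7 ± 69.9 CPM, Dd_07729 109 ± 82.3, Dd_07728 30.4 ± 16.2, Dd_07733 19.0 ± 15.1 and Dd_07732 7.47 ± 5.23 (SD, n = 5). Moving was the highest stage of each of these but Dd_07728, which averaged 31.2 ± 27.1 CPM at Comma. At position 4, Dd_07730 never averaged above 0.428 CPM and was not tested, which keeps this run out of the 188 measured in full. All 6 others differed over the 11 stages (edgeR adjusted p from 9.33e-11 to 9.76e-05).

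The run Dd_07999 to Dd_08005 (chromosome 3, 7167762 to 7202424, minus strand) also held 7 genes, but its pairs had course r of −0.04 to 0.83. Dd_08000 and Dd_08001, 213 bases apart, were the most alike pair. Dd_08003 was highest at 24-44cell with 365 ± 98.6 CPM, Dd_08004 at 64-78cell with 533 ± 344 CPM, and Dd_08001 at 4-cell and 8-cell with 81.8 CPM in each. Of the 7 genes, Dd_08003 (edgeR adjusted p = 0.000125) and Dd_08004 (adjusted p = 0.0162) passed the test over the stages, and the other 5 did not.

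The 5 genes Dd_01455 to Dd_01459 (chromosome 1, 9310811 to 9326361, minus strand) broke at the end of the run. Dd_01455, the last gene in the direction of transcription, was abundant early, with 836 ± 257 CPM at 2-cell and 183 ± 163 at Moving. The 4 genes before it had at most 4.04 CPM in any stage. Its neighbour Dd_01456, 123 bases away, had no count before 24-44cell, and their course r was −0.74. The other pairs had r of 0.91, 0.67 and 0.90, at these low levels. The other run of 5 genes, Dd_08950 to Dd_08954 (chromosome 3, 13508593 to 13544875, plus strand), had course r of −0.21 to 0.52 with a mean of 0.15. Of its genes, Dd_08950 differed over the 11 stages (edgeR adjusted p = 0.00426) and 4 did not pass.

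The run Dd_07699 to Dd_07702 (chromosome 3, 5150711 to 5164898, minus strand) showed opposed neighbours at gaps of 10 and 180 bases, on either side of an alike pair 26 bases apart. Dd_07701 had 835, 767, 263 and 756 CPM in the Zygote embryos and Dd_07700 had 182, 48.6, 67.7 and 128 CPM. Dd_07699, 10 bases downstream of Dd_07700, had no count in any Zygote embryo and reached 8.31 ± 13.1 CPM at Comma. Dd_07702, 180 bases upstream of Dd_07701, also had no count at Zygote and reached 6.12 ± 4.75 CPM at 2-fold. From Dd_07699 to Dd_07702, against the direction of transcription, the course r of the 3 pairs was −0.73, 0.77 and −0.89.

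The stage of the highest mean was distributed differently in run genes and in other genes. Among the genes at 1 CPM or more in some stage (626 run genes), 19.5% of run genes and 13.2% of other genes were highest at 24-44cell or 64-78cell. Moving and L1 held 23.2% of run genes and 30.6% of other genes. Zygote to 8-cell held 25.7% of run genes and 22.6% of other genes, and Comma to 2-fold 31.6% and 33.6%. Without Moving replicate 5, the shares at Moving and L1 were 22.2% of run genes and 30.7% of other genes. Neighbouring genes in runs had the same highest stage in 24.8% of pairs, against 19.0% of other same-strand pairs at all gaps. At gaps of 1 to 500 bases together, other same-strand pairs had 26.3%, so over that range the runs were not higher. At 1 to 100 bases the shares were 36.8% in runs and 32.8% in the others. In the next classes of 100 bases they were 25.7%, 19.1%, 12.7% and 20% in runs. The others had 26.9%, 24.4%, 19.9% and 18.6% in these classes.

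**Figure D3:**
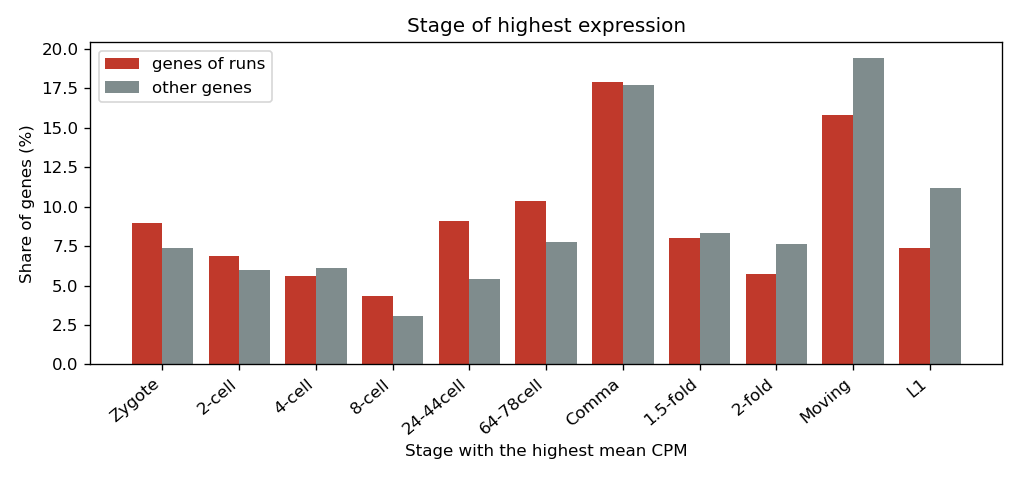
Share of genes, in percent, whose highest mean CPM fell in each of the 11 stages, for the 626 run genes at 1 CPM or more in some stage (left bar of each pair) and for all other such genes (right bar). Run genes exceed other genes at 24-44cell (9.11% against 5.40%) and 64-78cell (10.4% against 7.75%), and fall short of them at Moving (15.8% against 19.4%) and L1 (7.35% against 11.2%).

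A smaller share of run genes than of all genes was called as differing between stages. A quasi-likelihood F-test in edgeR over the 11 stages, with Benjamini-Hochberg adjustment over all 14931 genes tested and a threshold of 0.05, called 329 of 621 run genes (53.0%), and over all genes 63.1% were called. The share was lower in run genes at each level of expression. Under a mean of 10 CPM the calls covered 63.3% of run genes and 69.4% of all genes. From 10 to 50 CPM they covered 36.0% of run genes and 48.1% of all genes, and at 50 CPM or more 62.5% and 72.4%. In the 27 alike runs, 64 of 83 genes were called, but those runs were chosen on the same stage means.

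At 24-44cell, after the early cleavages, against Zygote, edgeR called 42 of 432 tested run genes higher (9.72%) and 4 lower (0.926%). Over all 8969 genes tested the shares were 10.4% higher and 2.63% lower. DESeq2 called 84 run genes higher and 18 lower, with 18.1% and 5.6% over all genes, and a fit of all libraries called 89 higher. With the replicate number as a block, edgeR called 11 higher and 0 lower (15 lower at an unadjusted p under 0.05), with 2.54% and 0.636% over all genes. The median log2 fold change was 0.40 in run genes and 0.33 over all genes. Without 24-44cell replicate 3 or replicate 4, 27 run genes were higher, and the number of lower ones lay between 0 and 5 with any embryo left out. For the fit of all libraries and these fits, shares over all genes are not given. Those counts show only how far the number of calls moved. Called genes lay in 39 runs, and 34 of them had a single one. Of tested pairs with a call, 11.4% had both genes called in runs, and 9.01% in other same-strand neighbours.

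The largest rises came from genes with no count in any zygote, each of which is given as a lower bound against 3 counts over the 4 zygotes. Dd_05396 had 467, 129, 130, 45.8 and 73.1 CPM in the 24-44cell embryos, at least 1017-fold higher than at Zygote (adjusted p = 0.00132). Dd_03386 had 9.11, 157, 135, 21.4 and 69.1 CPM, at least 462-fold higher (adjusted p = 0.00359). Dd_07731, of the first run of 7 genes, had 21.5, 117, 9.61, 25.7 and 78.9 CPM, at least 285-fold higher (adjusted p = 0.00539).

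The 3 genes had different company. With Dd_07731, its run mates Dd_07727 and Dd_07729 rose as well (adjusted p = 0.0487 and 0.0311), while the 4 others were too low to be tested. The run mates of Dd_03386, at 8 and 7 counts in all 24-44cell embryos together, were not tested. Those of Dd_05396 were not tested either, and Dd_05395 and Dd_05397 averaged 0.816 and 7.17 CPM at 24-44cell.

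Of the genes that fell, Dd_01826 had 187, 3.38, 30.9, 80.5 and 25.5 CPM in 24-44cell embryos, against 582, 453, 678 and 588 CPM in zygotes. No embryo overlapped, as the rule for naming required, and the log2 fold change was −2.92 ± 0.81 (SE, adjusted p = 0.0341). Dd_09564 averaged 16.5 ± 7.11 CPM at 24-44cell and 121 ± 60.4 at Zygote (log2 fold change −2.72 ± 0.65, adjusted p = 0.0192). Dd_09661 averaged 68.5 ± 26.0 CPM and 221 ± 85.4 (−1.49 ± 0.46, adjusted p = 0.0499). With 1 of the 9 embryos left out at a time, the call was lost in 8 cases for Dd_09661, in 6 for Dd_01826 and in 2 for Dd_09564. Without 24-44cell replicate 1, the log2 fold change of Dd_01826 was −3.87. No tested run mate of theirs passed in this comparison.

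One run split in this step. Dd_01477, Dd_01478 and Dd_01479 (chromosome 1, 9431495 to 9442711, minus strand) were singled out after their values were seen. Dd_01477 had 72.8, 243, 173, 98.4 and 163 CPM at 24-44cell, against 6.91, 1.47, 8.53 and 0 CPM at Zygote (log2 fold change 5.24 ± 1.06, adjusted p = 0.00988). Dd_01478, 92 bases upstream, had 108, 267, 209, 142 and 132 CPM, against 7.10, 2.51, 21.7 and 0 CPM (4.57 ± 1.08, adjusted p = 0.0185). Dd_01479, the first gene of the run, fell: it had 116, 123, 151, 151 and 83.9 CPM at 24-44cell, against 216, 242, 410 and 425 CPM at Zygote (−1.18 ± 0.35, adjusted p = 0.0443).

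The pair of genes that rose had a course r of 0.99 and a within-stage r of 0.91, and both were highest at 64-78cell. Between the middle gene and Dd_01479, at a gap of 418 bases, the course r was 0.44. All 3 genes then fell at Moving, relative to 24-44cell, by log2 fold changes of −3.87 ± 1.04, −3.90 ± 1.04 and −1.93 ± 0.53 (adjusted p = 0.0194, 0.0187 and 0.0228). The values were −3.58 ± 0.70, −3.61 ± 0.71 and −1.77 ± 0.45 without Moving replicate 5, and all 3 passed. With all embryos it was the only run with every gene called lower in a comparison of 2 stages. In the fit without Moving replicate 5, 3 runs had every gene called lower at Moving and 3 had every gene called higher.

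At Moving, when the formed embryo moves in the egg, against 24-44cell, 47 of 512 tested run genes were higher (9.18%) and 58 lower (11.3%). Over all 11362 genes tested the shares were 12.1% higher and 8.4% lower. The median log2 fold change was −0.24 in run genes and 0.44 over all genes. Without Moving replicate 5, 76 of 538 tested run genes were higher (14.1%) and 94 lower (17.5%), with 19.6% and 12.5% over all genes, and the medians were −0.13 in run genes and 0.65 over all genes. Without 24-44cell replicate 2, 71 were higher, with no share over all genes given. DESeq2 with its own size factors called 135 higher and 76 lower, with 29.3% and 8.47% over all genes. The replicate block gave 39 and 40, with 9.5% and 5.58% over all genes. A called gene was found in 89 runs, of which 13 had 2 or more calls. The numbers were 120 runs and 40 with 2 or more when Moving replicate 5 was left out.

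By the rule for naming, every Moving embryo lay above every 24-44cell embryo in the largest rises. Dd_11457 had 271, 189, 34.3, 156 and 98.3 CPM at Moving, against 0.280, 0.169, 0, 0 and 0.140 CPM at 24-44cell (log2 fold change 10.18 ± 1.10, adjusted p = 0.000186). Dd_08160 had 173, 149, 90.9, 173 and 114 CPM at Moving, and 1.08 CPM in a single 24-44cell embryo with none in the others (9.23 ± 1.36, adjusted p = 0.00101). That value rests on 8 counts in 24-44cell replicate 4: it lay between 8.69 and 12.62 with 1 embryo left out, and the highest, without that replicate, is a fitted value against 0 counts. Dd_06872 had 96.8, 88.6, 39.3, 42.0 and 2.94 CPM at Moving, and 2 counts in all 24-44cell embryos, a ratio of 1046 with a 95% counting interval of 289 to 8649 (adjusted p = 0.00134).

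The lowest Moving value of Dd_06872 was that of replicate 5. All 3 genes kept their calls without it (adjusted p from 0.000143 to 0.000719). No tested run mate of these 3 genes passed with all embryos. Dd_11455, of the run of Dd_11457, was not tested with or without replicate 5. It averaged 1965 ± 3057 CPM in the Moving embryos without replicate 5 (SD, n = 4). In the fit without replicate 5, Dd_08161, next to Dd_08160, was tested and rose (log2 fold change 4.86 ± 1.39, adjusted p = 0.0200). Dd_11456, next to Dd_11457, came closest with all embryos, with a log2 fold change of 3.04 ± 1.08 (adjusted p = 0.0617), and 3.11 ± 1.1 without replicate 5 (adjusted p = 0.0501). Dd_06873, next to Dd_06872, had 2.12 ± 1.3 (adjusted p = 0.266).

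Among the genes that fell at Moving, Dd_10089 had 3.27, 15.7, 7.68, 13.4 and 36.5 CPM, against 295, 512, 798, 117 and 524 CPM at 24-44cell (log2 fold change −4.92 ± 0.72, adjusted p = 0.000982). It was close to absent in zygotes, at 1.74 ± 3.48 CPM, so among Zygote, 24-44cell and Moving it was highest at 24-44cell. Dd_13068 had 0.545, 4.22, 0, 2.26 and 0 CPM at Moving, against 22.3, 54.1, 52.7, 103 and 54 CPM at 24-44cell (−5.18 ± 1.34, adjusted p = 0.0162). Its neighbours Dd_13067 and Dd_13069 had log2 fold changes of −1.56 ± 1.15 and −2.35 ± 0.94 that did not pass (adjusted p = 0.353 and 0.0928), and the course r of the pairs was 0.84 and 0.94. When Moving replicate 5 was left out, Dd_13069 passed as well (−3.62 ± 0.80, adjusted p = 0.00566), while without replicate 2 the value of Dd_13068 was −6.04. Dd_07701, of the run with opposed neighbours, had 3.09, 19.7, 7.20, 16.5 and 0 CPM, against 369, 82.5, 91.2, 153 and 276 CPM (−4.27 ± 1.06, adjusted p = 0.0135). Dd_10089, Dd_13068 and Dd_07701 had −5.38, −4.90 and −3.98 without Moving replicate 5, and all passed.

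A further run moved both ways in this step, and was named after its values were seen. Dd_11228 had 638, 158, 605, 191 and 250 CPM at Moving, against 0, 0, 0.126, 3.64 and 14.5 CPM at 24-44cell (log2 fold change 6.66 ± 1.50, adjusted p = 0.00835). Dd_11230, the first gene of the same run on chromosome 4, had 213, 96.4, 234, 136 and 192 CPM, against 920, 609, 334, 689 and 841 CPM (−1.96 ± 0.42, adjusted p = 0.00695). Dd_11229 between them averaged 15.0 ± 10.4 and 6.42 ± 6.52 CPM and did not pass (adjusted p = 0.535). Without Moving replicate 5, Dd_11228 had 6.79 ± 1.53 and Dd_11230 −1.95 ± 0.42, both past the threshold, and Dd_11229 did not pass. In that fit 6 runs held calls in both directions.

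The L1 larva, the end of the series, against the zygote gave 72 of 470 tested run genes higher (15.3%) and 13 lower (2.77%). Over all 10265 genes tested 22.5% were higher and 5.35% lower. The median log2 fold change was 0.33 in run genes and 0.93 over all genes. Without L1 replicate 2, 45 run genes were higher. DESeq2 called 146 higher and 29 lower, with 33.1% and 7.25% over all genes. A fit of all libraries called 159 and 54. Shares over all genes are not given for that fit or for the one without L1 replicate 2. The replicate block gave 30 and 4, with 11.2% and 2.63% over all genes. A called gene was found in 66 runs, of which 13 had 2 or more, all in 1 direction in 12 of these.

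In the run Dd_08220, Dd_08221 and Dd_08222 (chromosome 3, 8556178 to 8560039, plus strand) every gene was higher both at Moving than at 24-44cell and at L1 than at Zygote. Dd_08220 had 1156, 2068, 946, 1964 and 1424 CPM at L1 and no count in any zygote, at least 9164-fold higher (adjusted p = 3.74e-05). Dd_08221 had 9362, 15138, 2921, 8387 and 11814 CPM at L1, against 4.11, 0, 0 and 20.1 CPM at Zygote (log2 fold change 11.40 ± 1.84, adjusted p = 0.00124). Dd_08222 had 797, 1625, 426, 1028 and 1467 CPM, against 0, 5.86, 11.7 and 0 CPM (8.65 ± 1.56, adjusted p = 0.00244). Without Zygote replicate 4 the value of Dd_08221 was 13.36, and without Zygote replicate 3 that of Dd_08222 was 9.76.

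No embryo of one stage overlapped with the other in these 3 genes, which the rule for naming required of Dd_08220 at L1. At Moving their log2 fold changes over 24-44cell were 8.47 ± 1.37, 5.14 ± 0.87 and 4.70 ± 0.85 (adjusted p = 0.00156, 0.00215 and 0.00298). They kept their calls without Moving replicate 5, with 8.66 ± 1.37, 4.14 ± 0.66 and 4.32 ± 0.83. In that embryo Dd_08221 had 5570 CPM, against 337 to 1137 CPM in the other Moving embryos. Without 24-44cell replicate 1 the value of Dd_08220 was 9.52, and without 24-44cell replicate 2 that of Dd_08222 was 5.48. The means did not climb at the same stages: Dd_08221 averaged 357 ± 197 CPM at 64-78cell, when Dd_08220 averaged 21.0 ± 3.49 CPM, and Dd_08220 passed 100 CPM only at 2-fold. Their course r was 0.83 over the gap of 498 bases between Dd_08220 and Dd_08221, and 0.95 over the gap of 153 bases that followed.

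**Figure D4:**
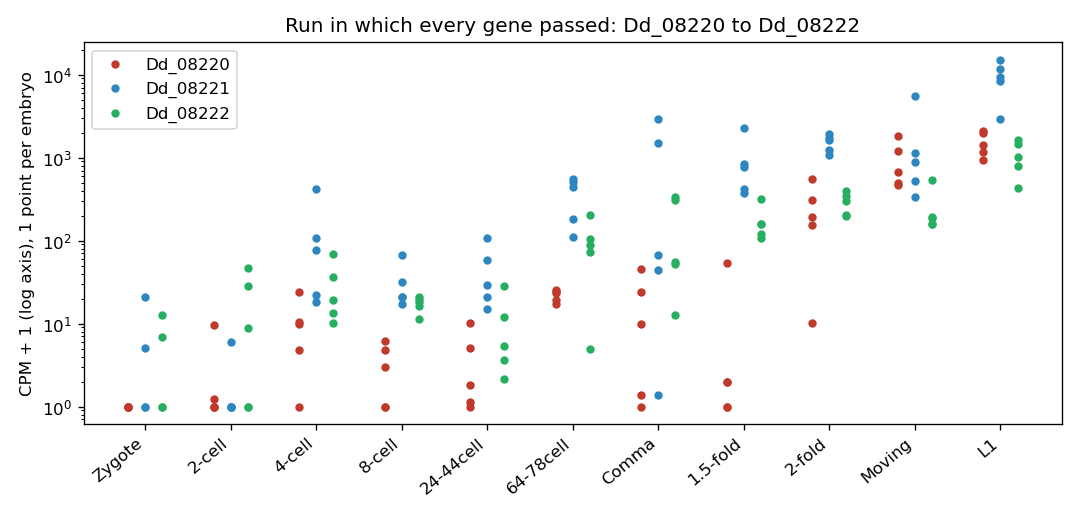
CPM + 1 on a log axis of the 3 genes of the run Dd_08220 to Dd_08222 by stage, with 1 point per embryo (4 at Zygote, 5 at each other stage). Dd_08221 climbs from 64-78cell on, while Dd_08220 stays low until 2-fold and ends at 946 to 2068 CPM in L1.

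A second run had every gene higher at L1 than at Zygote. Dd_15740 (chromosome 4) had 439, 454, 490, 1527 and 1262 CPM at L1 and no count at Zygote, at least 5126-fold higher (adjusted p = 4.99e-05). Its levels at Moving were spread widely, with 7283, 7068, 593, 2.26 and 199 CPM. Dd_15739 upstream averaged 37.5 ± 33.7 CPM at L1 with none at Zygote, at least 220-fold higher (adjusted p = 0.00495). Dd_15738, the first gene of the run, averaged 534 ± 788 CPM at L1 and 26.9 ± 27.4 at Zygote (log2 fold change 5.05 ± 1.47, adjusted p = 0.024), a mean carried by L1 replicate 1 at 1937 CPM. In the run of 7 genes around Dd_07731, 6 genes were higher at L1 and the seventh was too low to test.

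Dd_11457, which led the rises at Moving, had 399, 911, 379, 214 and 498 CPM at L1 and no count at Zygote, at least 2870-fold higher (adjusted p = 7.75e-05). Its neighbour Dd_11456 did not pass (log2 fold change 1.55 ± 0.65, adjusted p = 0.0987). Dd_11455, whose high and widely spread Moving level is given above, had 13 counts in all L1 embryos.

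The largest falls were of genes all but lost at L1. Dd_06212 had no count in any L1 embryo, against 123, 132, 40.7 and 61.0 CPM in zygotes, at least 1095-fold lower (adjusted p = 0.00192). Dd_09998 had 3 counts in all L1 embryos, against 29.1, 10.9, 91.1 and 42.0 CPM, with the pooled level at Zygote 481 times as high (95% counting interval 164 to 2340, adjusted p = 0.0057). Dd_09993 had 1 count in all L1 embryos, against 6.17, 33.5, 6.09 and 26.5 CPM, a ratio of 622 (95% counting interval 111 to 24655, adjusted p = 0.00639). These intervals cover counting error only. The last 2 genes belong to 2 runs that follow each other on chromosome 3, and their tested run mates had log2 fold changes of −2.37 to −3.74 that did not pass.

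Over all pairs tested, neighbours in runs had changes of the same sign in a larger share of pairs than other same-strand neighbours at Moving and 24-44cell, and in a smaller share at L1; these shares were not tested. At L1 against Zygote, both log2 fold changes had the same sign in 57.7% of the 272 run pairs, 59.9% of other same-strand pairs and 64.3% of those at gaps of 1 to 500 bases. At Moving against 24-44cell the shares were 68.5% of 305 run pairs, 58.5% and 64.7%, and at 24-44cell against Zygote 62.7% of 244 run pairs, 56.9% and 61.2%.

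The smaller number of pairs in which both genes were called mostly moved together. At L1 against Zygote, 16 neighbouring pairs in runs had both genes called, and all 16 moved the same way, while in other same-strand neighbours 239 pairs moved the same way and 49 opposite ways. At Moving against 24-44cell, 12 run pairs moved the same way and 0 opposite ways, and of the other same-strand pairs 138 and 55. Without Moving replicate 5 it was 35 run pairs the same way and 2 opposite ways, and 372 and 145 of the others, with 87 of 105 the same way at gaps of 1 to 500 bases. At 24-44cell against Zygote, 3 run pairs moved the same way and 1 opposite ways, and of the others 47 and 11. With gaps of 1 to 500 bases, other same-strand pairs had 60 of 64, 34 of 39 and 13 of 15 pairs the same way in these 3 comparisons. Only neighbouring pairs are in these counts. Dd_01824 and Dd_01826, on either side of Dd_01825, were called higher and lower at L1 against Zygote. So were Dd_11228 and Dd_11230, on either side of Dd_11229, at Moving against 24-44cell. The comparisons share the Zygote or the 24-44cell embryos. In all 3 comparisons most runs with a call had a single called gene. These were 53 of 66 at L1, 76 of 89 at Moving (80 of 120 without Moving replicate 5) and 34 of 39 at 24-44cell. Single calls were also the rule outside runs. Of tested pairs with a call, both genes were called in 24.6%, 11.1% and 11.4% of run pairs, in that order. In other same-strand pairs it was 19.0%, 13.8% and 9.01%, and at gaps of 1 to 500 bases 21.6%, 14.1% and 10.3%. Without Moving replicate 5, the shares at Moving were 22.2%, 21.3% and 21.6%.

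**Figure D5:**
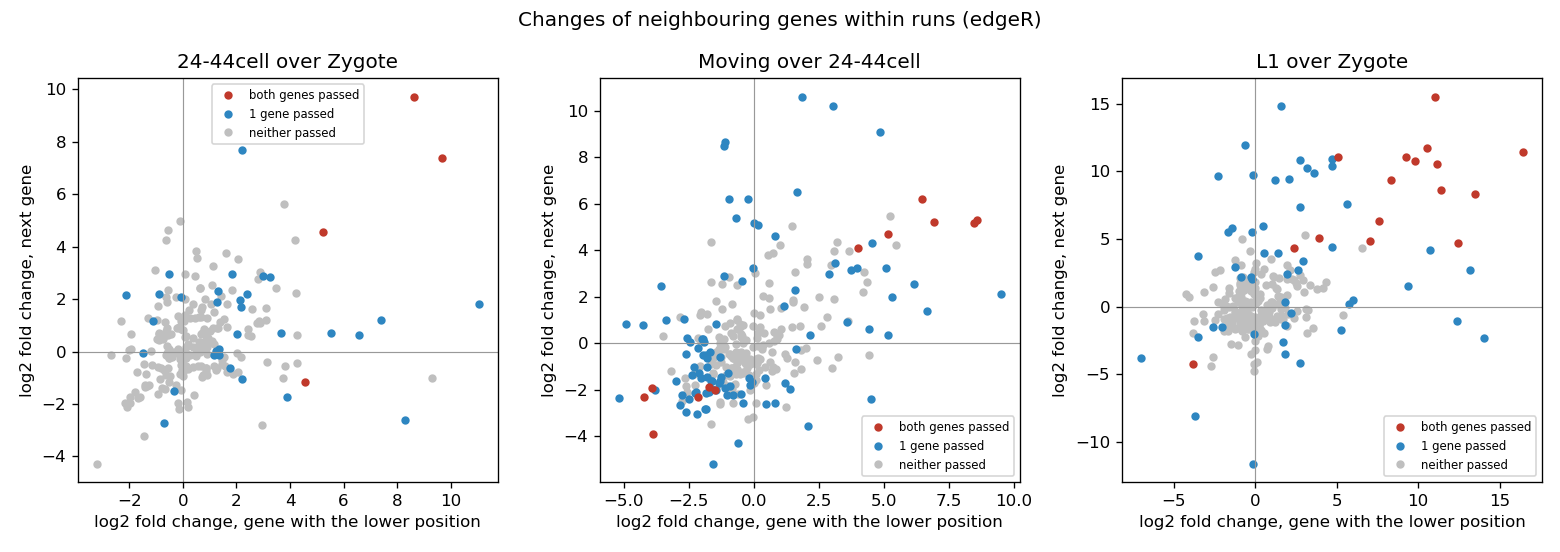
log2 fold change of each gene in a run against that of the next gene, for the 3 comparisons of 2 stages, where both genes were tested (244, 305 and 272 pairs). Colours mark pairs with both genes, 1 gene or neither gene past the threshold. Pairs with both genes past it lie in the upper right or lower left in all but 1 case, at 24-44cell over Zygote.

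The same rule found longer and more numerous runs in the other nematodes of the study. H. glycines had 368 runs with 1236 of 18219 genes (6.78%), the longest with 10 genes, and M. incognita had 1733 runs with 7293 of 45320 genes (16.1%), the longest with 102 genes. A pair of H. glycines libraries differed in at most 50 genes and was counted as 1 sample. Median course r was 0.52 in H. glycines runs (784 pairs), against 0.43 in its other same-strand neighbours. It was 0.50 in M. incognita runs (3011 pairs), against 0.30. The other same-strand pairs here were at all gaps, and the gap was not held equal in these species. At gaps of 1 to 100 bases the run pairs had medians of 0.72 in D. destructor, 0.69 in H. glycines and 0.69 in M. incognita. How the genes of each species were annotated is not given in the sources used here, and its part in the counts of runs was not tested.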

How the data were processed

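Single embryos of 3 nematodes were sequenced with Smart-seq2, and the 54 D. destructor libraries were used here, grouped by the stage in their labels. The deposited values are whole-number counts of reads per gene, not normalized. Per the labels and the methods of the study, the authors trimmed reads with fastp 0.20.1, aligned them to the genome of each species with HISAT2 and counted them with HTSeq. The strand setting of the counting is not given in the sources used here, and Smart-seq2 libraries do not keep the strand, so overlapping genes on opposite strands may share reads. Each table also gave the deposited position of every gene, as a start, an end and a strand, on an assembly whose build is not given in the sources used here. Genes carry IDs without names, the gene table at hand was of another assembly with other IDs, and so no gene functions, function lists or sequences are reported. Library totals were 300110 to 10641389 counts, and low totals widen the counting error of weak genes.

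CPM was the count divided by the library total, times 1000000. Pairs entered with both genes at a mean of 1 CPM or more in some stage, and correlations used log2(CPM + 1). Tests were edgeR 4.0.16 quasi-likelihood tests in R 4.3.3 (filterByExpr, TMM, Benjamini-Hochberg over all genes tested, threshold 0.05), fitted to the whole table, with the libraries of the 2 stages only or, for the 11 stages, all libraries. The test was tried on simulated counts with known changes first. DESeq2 1.42.0, other filters, scalings, pseudocounts, gap limits and run sizes, a replicate block and the removal of single libraries were alternatives. Python 3.11.15 with pandas 2.3.3 gave all other values.

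The rule for the members used gene positions only, but the rule and the lists were set with earlier results of these data known. Named genes are the 3 runs with the most genes (of 2 runs of 5 genes, the first by position), the 3 most and 3 least alike runs with all genes at 10 CPM or more, and the 3 largest rises and falls per comparison. A rise or fall had to pass the test, reach 10 CPM in the higher stage and show no overlap between embryos. The run mates of these genes and the run with every gene called were named too. Where a gene had no count in a stage, its fold is a bound against 3 counts over the libraries of that stage.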

Additional observations from a re-analysis of the deposited data

Results flagged for a closer look

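The share of counts in run genes and the number of run genes at 1 CPM or more were checked in each of the 11 stages. In 3 cases 1 embryo lay far from the rest of its stage, and chance alone gives about 1 in 20. Moving replicate 5 had 327 run genes at 1 CPM or more, against 534 to 563 in the other 4 Moving embryos. That library had 50.8% of other genes at 1 CPM or more, against 79.9 to 87.5% in the other 4, so the low number was not limited to runs. Zygote replicate 3 had 336 run genes at 1 CPM or more, against 367 to 368 in the other zygotes. In 2-fold replicate 1, run genes took 5.74% of all counts, against 3.42 to 3.96% in the other 2-fold embryos. The results at Moving are given with and without replicate 5 in the text. Zygote replicate 3 was left out singly only in the comparisons with Zygote, and 2-fold replicate 1 was not left out singly.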

How the results depend on the processing

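The difference in median course r between runs and other same-strand neighbours (0.13) kept its sign in all but 1 of the alternatives run, from 0.11 with Spearman's rho to 0.34 with gaps of 1 to 100 bases. It changed sign, to −0.027, against other same-strand pairs 1 to 500 bases apart. So did the within-stage difference, to −0.016, an alternative chosen after seeing the data. The 0.34 sets close run pairs against other same-strand pairs at all gaps. With 1 to 100 bases in both, under the main rule, the medians were 0.72 in runs and 0.63 in the others.
The difference was 0.21 without a log, 0.18 with a pseudocount of 10, 0.17 with libraries thinned to the smallest total and 0.15 without libraries under 1000000 counts. It was 0.17 for runs of 4 or more genes and 0.19 for runs of 2 or more. With runs of 2 or more, every same-strand pair 1 to 500 bases apart is a run pair, so gap and run cannot be told apart there. The median in runs was 0.47 without a log, 0.73 with gaps of 1 to 100 bases, 0.48 with gaps of 1 to 1000 and 0.56 for runs of 4 or more genes. The median in other same-strand neighbours was 0.26 without a log, 0.41 and 0.34 with pseudocounts of 0.1 and 10, 0.35 with both genes at 10 CPM, 0.32 after thinning and 0.34 beside runs of 2 or more genes. Leaving out Moving replicate 5, chosen after seeing the data, gave a median of 0.541 in runs and 0.396 in other same-strand neighbours. Without any 1 replicate number it lay between 0.50 and 0.52 in runs and between 0.34 and 0.39 in the others, and the difference between 0.13 and 0.16. Without Comma and Moving, chosen after seeing the data, other same-strand neighbours had 0.33 and the difference was 0.19, while the within-stage median in runs was 0.15 and its difference 0.053. The within-stage median in runs was 0.16 with a pseudocount of 10 and 0.14 with both genes at 10 CPM, and its difference was 0.0501 with a pseudocount of 0.1 and 0.0366 with both genes at 10 CPM.
The share of run genes highest at Zygote to 8-cell was 21.5% with TMM scaling, 29.9% at 10 CPM or more and 25.3 to 30.9% without any 1 replicate number.
Counts of called run genes moved more. DESeq2 called 84 higher and 18 lower at 24-44cell against Zygote, 135 higher at Moving against 24-44cell, and 146 higher and 29 lower at L1 against Zygote. A fit of all libraries called 89 higher in the first comparison, 88 higher and 90 lower in the second, and 159 higher and 54 lower in the third. Without a filter 76 were higher at Moving. With 1 embryo left out, the ranges were 27 to 39 higher and 0 to 5 lower, 32 to 76 higher and 43 to 94 lower, and 45 to 73 higher and 10 to 16 lower in the 3 comparisons. The number differing over the 11 stages was 253 to 311 without any 1 replicate number and 337 with DESeq2. Shares over all genes are given above for DESeq2 in the 3 comparisons and for the fit without Moving replicate 5. The other counts here have none and show only how far the number of calls moved.
Replicate numbers did not pair the embryos: deviations of same-numbered embryos correlated at −0.03 to 0.03. The replicate block gave 11 higher and 0 lower run genes at 24-44cell against Zygote, 39 and 40 at Moving against 24-44cell, 30 and 4 at L1 against Zygote, and 322 over the 11 stages. No named gene changed direction under any alternative run, and 27 of their values lost the call while 304 kept it. The causes of these shifts were not tested. Depth limits weak genes, since 2 libraries held under 1000000 counts.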
